A study of Mus musculus with 100 samples.

Results

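Gt(ROSA)26Sor, the noncoding transcript of the Rosa26 locus, was followed together with the genes on either side of it, Thumpd3 and Setd5, in 18 mouse RNA-seq libraries. The 3 genes were taken by name from a table of 25965 genes, because Gt(ROSA)26Sor was low in induced pluripotent stem cell (iPSC) lines and high in embryonic stem cells (ESCs). The genes were thus chosen by the comparison of these iPSC lines with these ESCs, over columns of total, maternal and paternal values. Its values are given below as a description, with no test, and so are the differences of Gt(ROSA)26Sor between either of these groups and the fibroblasts, since they rest on the same libraries.

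The Rosa26 locus was found through a gene trap, and its transcript is a noncoding RNA made in most mouse cell types. Constructs are often placed in its first intron, where they are expressed from the promoter of the locus in many tissues. Thumpd3 encodes a methyltransferase that modifies transfer RNA. Setd5 encodes a SET-domain protein of chromatin that is needed in mouse development.

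The study compared parental alleles in reprogrammed cells. Mothers of the i4F strain on a C57BL/6J (BL6) background were crossed with CAST/EiJ (CAST) fathers, and mouse embryonic fibroblasts (MEFs) were grown from single mid-gestation F1 embryos, of which 1 was female. The i4F mice carry a polycistronic cassette of Oct4, Sox2, Klf4 and c-Myc that doxycycline switches on through rtTA, and the embryos were genotyped for the cassette and for the rtTA gene in the Rosa26 locus. This insertion came with the mothers and would by the cross lie on the BL6 allele, although its exact position and the genotype of each library are not given in the sources used here. Both the MEFs and the iPSC lines come from such embryos, so no group of this cross without the insertion was available for comparison. The iPSC lines, each grown from 1 colony, were reprogrammed and kept in a medium with Knockout Serum Replacement (KSR), first with doxycycline and then on feeder cells without it. Lines F KSR2 and F KSR4 were female, and M KSR3 and M KSR5 were male. The TX 2i ESCs were female TX1072 cells, which had a BL6 mother and a CAST father. They were grown in 2i, that is, with inhibitors of MEK and GSK3, in a medium with serum, whereas the KSR medium was serum-free. As background, TX1072 is known as a line with a doxycycline-responsive promoter at Xist and an rtTA insertion at Rosa26, and the allele of that insertion is not given in the sources used here. Male MEFs were not analysed here.

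Each of the 6 groups held 3 libraries, called biological replicates in the study. What separated these replicates (cultures, passages or extractions) is not given in the sources used here, so p-values measure the spread between these libraries. As each KSR-iPSC line grew from a single colony, the p-values do not measure the spread between clones. The libraries held 13183036 to 17921280 reads on genes, of which 1329127 to 1916138 carried a BL6 base and 1069157 to 1627282 a CAST base. A gene's level is given as log2 RPM, its reads scaled to a library total of 1000000, where a single read stood between -4.29 and -3.89. The summed level of 15 fibroblast genes in the KSR-iPSC libraries was between 0.0661% and 0.695% of the MEF mean, the highest in M KSR5 replicate 3, and in TX 2i ESCs it was between 0.175% and 0.261%. The summed level of 12 pluripotency genes in the MEFs was between 0.852% and 1.44% of the TX 2i ESC mean, with Pou5f1, Zfp42, Dppa5a, Tdgf1 and Dppa4 without reads in every MEF library. In the KSR-iPSC libraries it was between 55.6% and 82.9%.

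The 3 genes lie close together on chromosome 6 (GRCm38). Thumpd3 is read in the forward direction at chr6:113046225-113068273, and Gt(ROSA)26Sor is read in the opposite direction at chr6:113067428-113077333. Their ends overlap over 846 bases, of which 145 are exonic in both, and the study counted reads by strand. Setd5 starts at chr6:113077365 and runs forward to 113153435, so that it and Gt(ROSA)26Sor are transcribed away from each other with 31 bases between them. The stretch from the base before Setd5 into the first exon of Gt(ROSA)26Sor is shown because the starts of both genes face away from each other across it. It is chr6:113077174-113077364 of the RefSeq GRCm38 genome on the strand of Gt(ROSA)26Sor, with the 31 bases between both genes in capitals.
start region of Gt(ROSA)26Sor: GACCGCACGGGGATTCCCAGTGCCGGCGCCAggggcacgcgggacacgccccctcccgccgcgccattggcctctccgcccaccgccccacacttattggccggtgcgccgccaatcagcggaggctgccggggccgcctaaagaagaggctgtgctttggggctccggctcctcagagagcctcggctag
These 191 bases held 20 CG pairs and were 72.3% G or C. Of 32817 mouse promoter windows of the same length, 14.9% held at least as many CG pairs, and the median window held 5. These windows were the last bases of 300-base promoter sequences. The stretch shown lies mostly in the first exon, so its place relative to the start was not matched to theirs.

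The first intron of Gt(ROSA)26Sor spans 5632 bases in RefSeq. Constructs for Rosa26 are commonly placed at an XbaI site (TCTAGA) in this intron, which is shown because the allelic values below concern a locus used in this way. The motif TCTAGA, which is its own reverse complement, occurred at 2 places in the intron. The one nearest to the first exon lay 1031 bases inside the intron, within chr6:113076004-113076063, which is printed on the strand of Gt(ROSA)26Sor with the motif in capitals.
first intron of Gt(ROSA)26Sor: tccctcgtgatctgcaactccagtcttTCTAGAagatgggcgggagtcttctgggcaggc
Of the same 32817 mouse promoters, 6.61% held this motif within 300 bases. The intron is far longer than these windows, so its 2 sites cannot be set against this share. Whether the rtTA construct of these mice sits at this place is not given in the sources used here.

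Gt(ROSA)26Sor was highest in TX 2i ESCs, lower in MEFs, and lower still in every KSR-iPSC line. Its log2 levels in TX 2i ESCs were 5.63, 6.95 and 5.65 in replicates 1, 2 and 3, from 882, 2310 and 790 reads. In female MEFs they were 2.79, 2.18 and 2.18, from 113, 89 and 86 reads. Replicate 2 of the TX 2i ESCs stood above the other two, and no library of either group came near those of the other.

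In F KSR2 the log2 levels were -0.46, -1.22 and -0.23, from only 13, 8 and 14 reads. In F KSR4 they were 1.21, 1.11 and 0.81, from 42, 39 and 26 reads. All 3 F KSR2 libraries lay below the 9 libraries of the other KSR-iPSC lines, as in 1.24% of all genes. In M KSR3 the levels were 1.36, 1.44 and 1.85, from 44, 53 and 65 reads. In M KSR5 they were 0.41, 0.65 and 1.84, from 24, 28 and 62 reads. The third M KSR5 library stood apart from the first and second, and it also held the most fibroblast RNA of the KSR-iPSC libraries; the part of one in the other was not tested.

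**Figure D1:**
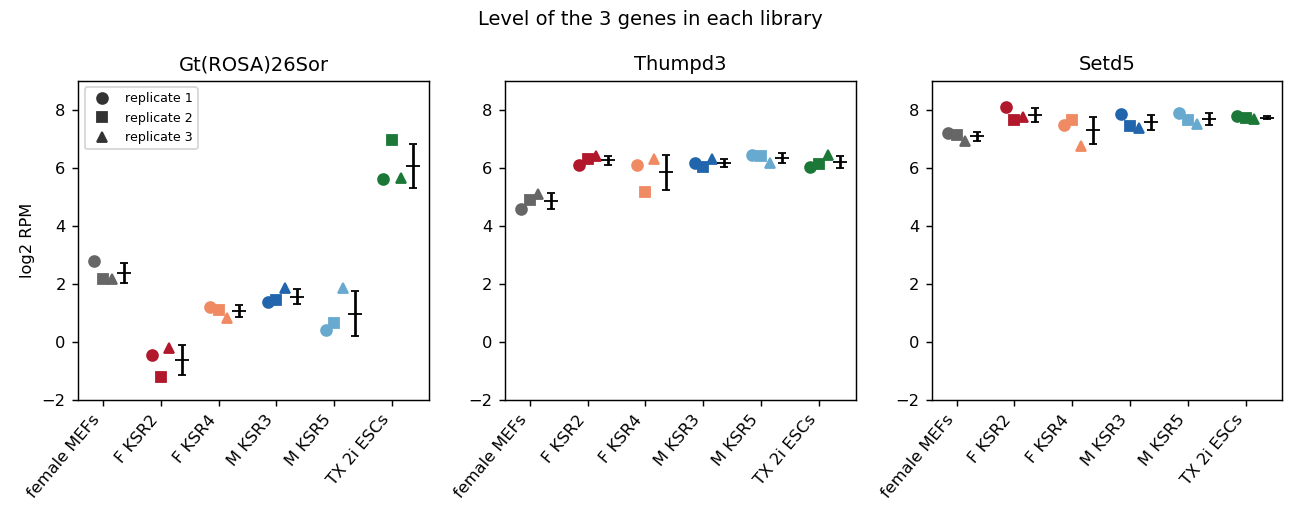
Log2 RPM of Gt(ROSA)26Sor, Thumpd3 and Setd5 (y axis) in the 6 groups (x axis), with 1 symbol per library and the mean ± SD of 3 libraries in black. Gt(ROSA)26Sor spans -1.22 to 6.95 over the 18 libraries, whereas Thumpd3 spans 4.57 to 6.46 and Setd5 6.75 to 8.11.

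The difference that chose the genes was therefore carried by Gt(ROSA)26Sor. Its mean log2 level in the 4 KSR-iPSC lines was 0.73, against 6.08 ± 0.76 (SD, n = 3) in TX 2i ESCs, a difference of -5.35 in log2. The highest KSR-iPSC library was at 1.85 and the lowest TX 2i ESC library at 5.63, and 6.21% of all genes had their 12 KSR-iPSC values below their 3 TX 2i ESC values. The same difference was -0.043 for Thumpd3 and -0.13 for Setd5, whose libraries overlapped between both kinds of cells. Of all 14632 genes tested, 23.0% passed the test in this comparison, which is given for reference only. In bulk RNA, fewer cells that express a gene and less of its RNA in each cell cannot be told apart.

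Divided by exon length, the levels of the genes can be set beside each other. The length was that of all annotated exons of a gene merged, 1695 bases for Gt(ROSA)26Sor, 6554 for Thumpd3 and 18347 for Setd5. In TX 2i ESCs Gt(ROSA)26Sor had 49.1 ± 28.6 (SD, n = 3) RPKM (RPM per kilobase of exon), while Thumpd3 had 12.6 ± 1.69 and Setd5 12.9 ± 0.697. In the KSR-iPSC lines the means of Gt(ROSA)26Sor were between 0.451 in F KSR2 and 1.99 in M KSR3, while those of Thumpd3 and Setd5 were between 10.3 and 14.4. In MEFs the means were 3.42 ± 0.858 for Gt(ROSA)26Sor, 4.90 ± 0.933 for Thumpd3 and 8.11 ± 0.788 for Setd5. On this scale Gt(ROSA)26Sor was the highest of the 3 genes in TX 2i ESCs and the lowest in the other groups. The order depends on the lengths used, and those of single transcripts were not tried.

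Among the KSR-iPSC lines, F KSR2 had less Gt(ROSA)26Sor than the other lines, and Thumpd3 and Setd5 did not pass the test. The mean log2 level of Gt(ROSA)26Sor was -0.64 ± 0.52 (SD, n = 3) in F KSR2 and 1.19 over the means of F KSR4, M KSR3 and M KSR5, a difference of -1.82 ± 0.36 (SE, adjusted p = 0.00822 in limma). The 3 libraries of F KSR2 lay below all 9 of the other lines. Of 14632 genes tested, 3.67% passed the test in this comparison and 1.24% had all F KSR2 libraries below the others. The differences were 0.15 ± 0.19 for Thumpd3 (adjusted p = 0.787 in limma) and 0.32 ± 0.17 for Setd5 (adjusted p = 0.391 in limma). Reads of chromosome 6 were 93.2% to 98.6% maternal in F KSR2, whereas most allelic reads of Gt(ROSA)26Sor in the other lines were paternal, as described below, and the part of this in the difference was not tested. The call of Gt(ROSA)26Sor rested on few reads. It was lost in limma-voom on the recovered reads, at -1.78 (adjusted p = 0.186 in limma-voom), and without F KSR2 replicate 2, at -1.53 (adjusted p = 0.0773 in limma), within a range of adjusted p from 0.00624 to 0.186 over 25 alternatives. With 1 added before the logarithm, which shrinks differences of low genes, it was -0.998 (adjusted p = 0.0453 in limma).

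No pair among F KSR4, M KSR3 and M KSR5 passed the test in Gt(ROSA)26Sor. F KSR4 and M KSR3 differed by -0.51 ± 0.45 (SE, adjusted p = 0.479 in limma), and their libraries did not overlap. F KSR4 and M KSR5 differed by 0.078 ± 0.45 (adjusted p = 0.951 in limma), and M KSR3 and M KSR5 by 0.58 ± 0.45 (adjusted p = 0.559 in limma), with overlapping libraries in both pairs. In these 3 comparisons 13.1%, 2.34% and 4.48% of all genes passed the test, and 18.8% of all genes had every F KSR4 library below every M KSR3 library. In order, F KSR2 was lowest and M KSR5, F KSR4 and M KSR3 followed, with MEFs and TX 2i ESCs above. Of these neighbours, M KSR5 and F KSR4 overlapped, whereas F KSR4 lay below M KSR3 without passing the test.

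The mean of the female lines was lower than that of the male lines in Gt(ROSA)26Sor, by -1.05 ± 0.31 in log2 (SE, adjusted p = 0.0409 in limma). In this comparison 10.4% of all genes passed. The means were 0.20 and 1.26, and the libraries overlapped. By line, only F KSR2 (-0.64) lay below both male lines, as F KSR4 was at 1.04 and M KSR5 at 0.97. The call was lost in 5 of the other settings and without any 1 of 8 libraries, with adjusted p up to 0.222 and the smallest difference, -0.61, with 1 added before the logarithm. The female lines include F KSR2, and each sex was represented by 2 clones, so that sex, embryo and clone cannot be told apart. Thumpd3 differed by -0.20 (adjusted p = 0.499 in limma) and Setd5 by -0.064 (adjusted p = 0.831 in limma).

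The MEFs were female, whereas M KSR3 and M KSR5 came from male MEFs, so that sex and embryo also differ between the MEF libraries and these lines. The mean log2 level of Gt(ROSA)26Sor was 2.38 in MEFs and 0.73 in the 4 lines, a difference of 1.65. The 3 MEF libraries lay above all 12 KSR-iPSC libraries, as in 25.5% of all genes, and nothing is read from this, since the gene was chosen for its low level in these lines. Thumpd3 went the other way, with MEFs lower by -1.30 ± 0.19 (SE, adjusted p = 6.98e-06 in limma), in a comparison in which 74.3% of all genes passed. Its MEF libraries lay below all KSR-iPSC libraries, as in 27.5% of all genes. Setd5 was lower in MEFs by -0.51 ± 0.17 (adjusted p = 0.0101 in limma), with overlapping libraries. Centring each library on its median gene raised every difference in this comparison by 0.25 and left Setd5 at -0.26 (adjusted p = 0.182 in limma), and without MEF replicate 3 Setd5 was at -0.42 (adjusted p = 0.0703 in limma), within adjusted p from 0.000734 to 0.182 over 25 alternatives.

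MEFs were also lower than TX 2i ESCs in Thumpd3 and Setd5, in a comparison in which 66.5% of all genes passed. The difference was -1.34 ± 0.24 for Thumpd3 (SE, adjusted p = 8.16e-05 in limma). It was -0.65 ± 0.21 for Setd5 (adjusted p = 0.0117 in limma), and the MEF libraries lay below the TX 2i ESC libraries in both genes, as they did in 42.7% of all genes. For Gt(ROSA)26Sor the difference was -3.69, a description against the libraries whose high level chose it. After centring, Setd5 was at -0.36 (adjusted p = 0.164 in limma), and without MEF replicate 3 it was at -0.56 (adjusted p = 0.053 in limma), within adjusted p from 0.00213 to 0.164 over 24 alternatives. These comparisons share the MEF libraries, and the values are given side by side.

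The alleles of Gt(ROSA)26Sor differed between the groups. In TX 2i ESCs 318, 875 and 286 reads were maternal and 15, 18 and 10 paternal, a maternal share of 96.7% ± 1.25 (SD, n = 3). In F KSR4 3, 0 and 0 reads were maternal and 14, 16 and 17 paternal. In M KSR3 0, 3 and 5 were maternal and 15, 14 and 22 paternal. Reads of these lines came mostly from the paternal allele, those of TX 2i ESCs mostly from the maternal allele. In M KSR5 0, 2 and 0 reads were maternal and 8, 6 and 24 paternal. Over the 9 libraries of these 3 lines, 13 reads were maternal and 136 paternal, and 5 libraries had no maternal read at all. At 0 of 17 reads, as in F KSR4 replicate 3, the 95% Wilson interval of the maternal share still reached 18.4%. Such intervals cover counting error only.

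The mean paternal values lay between 0.810 and 1.50 RPM in all groups except F KSR2. Scaled to all reads on genes, the paternal allele gave 0.909 ± 0.201 RPM (SD, n = 3) in TX 2i ESCs. For F KSR4 the value was 1.08 ± 0.212, for M KSR3 1.07 ± 0.285 and for M KSR5 0.810 ± 0.644. In MEFs it gave 1.50 ± 0.407. The MEF libraries ranged from 1.19 to 1.96 and the TX 2i ESC libraries from 0.691 to 1.08. The TX 2i ESC libraries lay within the range of the 9 libraries of the 3 lines. The maternal allele gave 30.9 ± 18.9 RPM in TX 2i ESCs and at most 0.312 in any KSR-iPSC library. The distance of F KSR4, M KSR3 and M KSR5 from TX 2i ESCs was thus in the maternal reads, a description of the values that chose the gene. F KSR2 was lower in the paternal reads as well, at 0.135 ± 0.233 RPM.

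**Figure D2:**
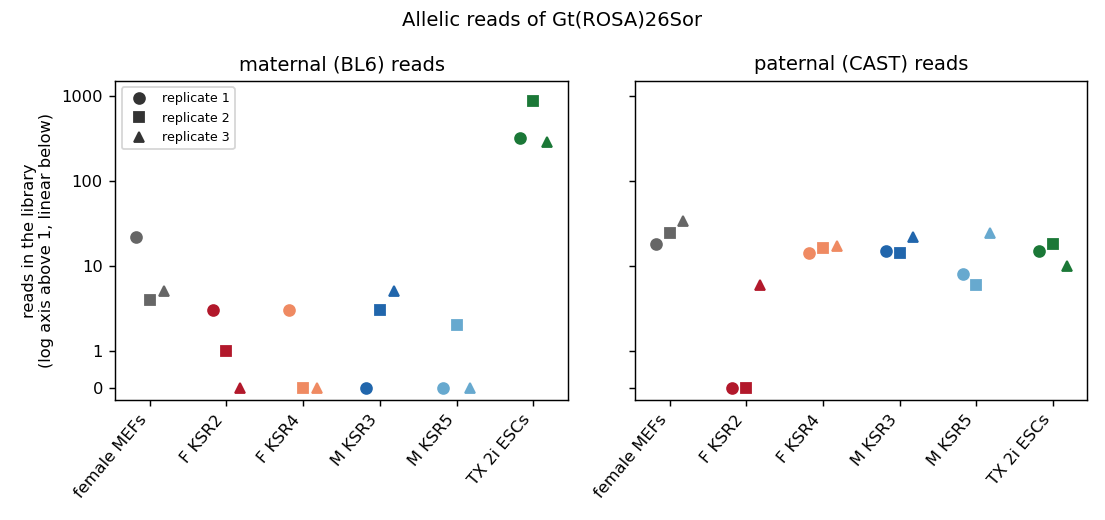
Reads of Gt(ROSA)26Sor with a BL6 base (left, maternal) and with a CAST base (right, paternal) in each library (y axis, logarithmic above 1 read and linear below) by group (x axis). Maternal reads reach 286 to 875 in TX 2i ESCs and at most 22 elsewhere. Paternal reads of TX 2i ESCs, 10 to 18, lie among those of F KSR4, M KSR3 and M KSR5, and those of the MEFs are 18 to 34.

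The MEF libraries were not alike in these alleles. MEF replicate 1 had 22 maternal and 18 paternal reads, a maternal share of 55.0% (95% Wilson interval 39.8% to 69.3%). Replicates 2 and 3 had 4 maternal and 24 paternal reads and 5 maternal and 34 paternal reads, shares of 14.3% (5.70% to 31.5%) and 12.8% (5.60% to 26.7%). The interval of replicate 1 did not meet those of replicates 2 and 3. Thumpd3 had maternal shares of 49.5%, 50.4% and 47.0% in the same libraries, and chromosome 6 as a whole 53.8%, 54.0% and 54.3%, so that replicate 1 lay close to the others in both. Over genes with at least 100 reads in a pair of libraries, however, it stood farther from replicates 2 and 3, with mean squared differences of 57.2 and 55.6 times counting noise, than these stood from each other (17.02 times). It also had the highest fibroblast sum, at 119% of the MEF mean against 94.3% and 86.2%. The part of this in its allelic reads was not tested. With a mean of 27.4% ± 23.9 (SD, n = 3) in MEFs and 8.76% over the 9 libraries of F KSR4, M KSR3 and M KSR5, the maternal share of Gt(ROSA)26Sor differed by -18.6 percentage points, which became -4.80 without MEF replicate 1.

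Fitted in limma, the maternal values of Gt(ROSA)26Sor differed by -2.26 in log2 between the 3 lines and MEFs. In 5 of the 9 libraries there was no maternal read, so the fitted value depends on the value given to a gene without reads and is not a bound. Without MEF replicate 1 it was -1.38. The paternal values of the 3 lines differed from those of MEFs by -0.60.

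F KSR2 differed from the other lines over the whole region. Thumpd3 had 302, 355 and 279 maternal reads and 3, 2 and 20 paternal reads there, and Setd5 had 183, 143 and 142 maternal reads and 0, 1 and 16 paternal reads. The maternal shares were 97.3% ± 3.42 for Thumpd3 and 96.4% ± 5.66 for Setd5 (SD, n = 3). The third library carried most of the paternal reads of both genes. The 37 other genes within 1 Mb, summed, had maternal shares of 98.5%, 98.8% and 93.4%, and all of chromosome 6 had 98.6%, 98.6% and 93.2%, whereas chromosome 6 lay between 48.6% and 54.3% in the 15 libraries of the other groups. Few paternal reads were thus seen along the whole of chromosome 6 in this line.

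Gt(ROSA)26Sor in F KSR2 was left with 3, 1 and 0 maternal reads and 0, 0 and 6 paternal reads. In replicates 1 and 2, where paternal reads were nearly missing along chromosome 6, the paternal allele of Gt(ROSA)26Sor had none. In replicate 3 all 6 allelic reads were paternal (maternal share 0%, 95% Wilson interval 0% to 39.0%), while the neighbouring genes of the same library had maternal shares of 93.3% (Thumpd3) and 89.9% (Setd5). Only this library had the 5 allelic reads set as the minimum for a share, so no test of the share was made in F KSR2. The maternal values of Gt(ROSA)26Sor in F KSR2 and in the other 3 lines differed by -0.11 ± 0.65 in log2 (SE, adjusted p = 0.967 in limma), in a comparison in which 5.95% of all genes passed, and its direction turned in 7 of 24 alternatives. In 6 of the 12 KSR-iPSC libraries there was no maternal read. With this SE the value cannot tell no change from a rise as large as that of Thumpd3. The maternal values of Thumpd3 were higher in F KSR2 by 1.05 ± 0.22 (adjusted p = 0.00524 in limma). Those of Setd5 were higher by 1.53 ± 0.45, which did not pass (adjusted p = 0.0526 in limma), and passed in 11 of 24 alternatives. In both genes all 3 F KSR2 libraries lay above the 9 others, as they did in 3.35% of all genes. Maternal reads over all of chromosome 6 were 120874 to 133974 in F KSR2. They were 49782 to 66509 in the other 3 lines, and the part of this in both genes was not tested.

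**Figure D3:**
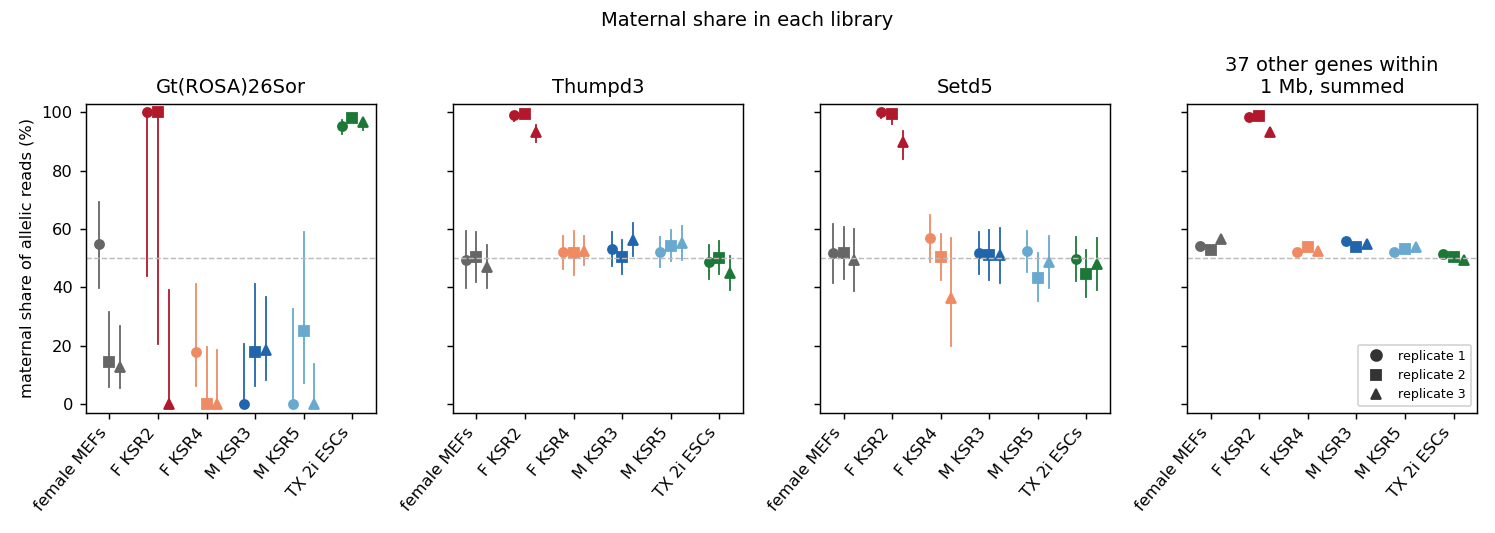
Maternal share of the allelic reads in percent (y axis) in each library by group (x axis), for the 3 genes with 95% Wilson intervals and for the 37 other genes within 1 Mb summed. Thumpd3, Setd5 and the summed genes lie near 50% except in F KSR2, whereas Gt(ROSA)26Sor is at 25% or less in F KSR4, M KSR3 and M KSR5 and at 95.5% to 98.0% in TX 2i ESCs.

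Thumpd3, whose 3' end overlaps that of Gt(ROSA)26Sor on the other strand, was lowest in MEFs and higher in the pluripotent cells. Its log2 levels were 4.57, 4.89 and 5.12 in MEFs and 6.02, 6.13 and 6.45 in TX 2i ESCs. In the 12 KSR-iPSC libraries they ranged from 5.16 to 6.46, with a median of 6.23. The lowest of these was F KSR4 replicate 2, and all others were at 6.04 or above. No pair among F KSR4, M KSR3 and M KSR5 passed the test (differences from -0.49 to -0.18, adjusted p between 0.271 and 0.774 in limma). Both alleles were higher in these 3 lines than in MEFs, the maternal values by 1.37 ± 0.22 (SE, adjusted p = 3.28e-05 in limma) and the paternal values by 1.31 ± 0.49 (adjusted p = 0.0282 in limma), where 61.6% and 61.5% of all genes passed. The paternal call was lost after centring, at 0.95 (adjusted p = 0.0942), without MEF replicate 1, at 1.18 (adjusted p = 0.0925), and without MEF replicate 2, at 1.22 (adjusted p = 0.0832), all in limma and with adjusted p from 0.000326 to 0.0942 over 24 alternatives.

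The maternal share of Thumpd3 lay near 50% outside F KSR2. It was 49.0% ± 1.74 (SD, n = 3) in MEFs, 47.9% ± 2.74 in TX 2i ESCs and 53.1% ± 1.88 (SD, n = 9) in F KSR4, M KSR3 and M KSR5. The 9 libraries exceeded the MEFs by 4.13 percentage points (exact two-sided permutation test, p = 0.0182), which fell to 1.03 (exact p = 0.5) when each allele was scaled to its own total, as deposited. Without MEF replicate 1 it was 4.39 and without MEF replicate 3 it was 3.16 (exact permutation p = 0.0727 in both). Libraries rather than clones were permuted here as well.

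Setd5 spanned the narrowest range of the 3 genes. Its log2 levels were 7.19, 7.15 and 6.91 in MEFs, 7.78, 7.73 and 7.68 in TX 2i ESCs, and between 6.75 and 8.11 in the KSR-iPSC libraries, with a median of 7.65. F KSR4 replicate 3 was the lowest library of the series and F KSR2 replicate 1 the highest. No pair among F KSR4, M KSR3 and M KSR5 passed the test (differences from -0.39 to -0.12, adjusted p between 0.324 and 0.849 in limma). Against MEFs, the maternal values of the 3 lines differed by 0.25 ± 0.45 (SE, adjusted p = 0.648 in limma) and the paternal values by 0.53 ± 0.65 (adjusted p = 0.483 in limma). Its maternal share was 50.9% ± 1.34 (SD, n = 3) in MEFs, 47.4% ± 2.58 in TX 2i ESCs and 49.1% ± 5.97 (SD, n = 9) in the 3 lines (exact two-sided permutation test of the lines against MEFs, p = 0.709). F KSR4 replicate 3, at 36.4%, had only 22 allelic reads of Setd5.

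A comparison of Gt(ROSA)26Sor with Setd5 inside each library cancels the scaling of the library. The values are differences of log2 RPM with no regard to length, and only their change between groups is read. The mean difference was -1.65 ± 0.76 (SD, n = 3) in TX 2i ESCs and -4.70 ± 0.28 in MEFs. Lines F KSR4, M KSR3 and M KSR5 had -6.25 ± 0.30, -6.02 ± 0.50 and -6.72 ± 0.94. F KSR2 was lowest, at -8.47 ± 0.46. The 3 libraries of F KSR2 lay 2.14 below the mean of the 9 others, at -8.47 against -6.33 (exact two-sided permutation test, p = 0.00909, the smallest that 3 against 9 can give). The F KSR2 libraries already lay below the others in Gt(ROSA)26Sor itself, from the same few reads, so this p adds no separate support. The test permuted libraries rather than clones, so it does not measure the spread between clones. With Thumpd3 in place of Setd5 the difference was -1.97, and with 1 added before the logarithm that with Setd5 was -1.31 (exact permutation p = 0.00909 in both).

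The other genes around the locus were counted by position. The table held 40 genes that start within 1 Mb of its start, of which 37 were other genes than the 3 described here and 26 of those were tested. In F KSR2 against the other 3 lines, 0 of the 26 passed limma's test in either direction, against 3.67% of all genes, while 1 had an unadjusted p under 0.05 and 1 passed in limma-voom. Their differences ranged from -0.94 to 1.47 with a median of 0.21, beside a median of 0.015 over all genes. In the KSR-iPSC lines against TX 2i ESCs, the differences of the 26 ranged from -1.73 to 2.89, with no test beside the -5.35 that chose Gt(ROSA)26Sor. In MEFs against the 4 lines, 8 of the 26 were higher and 11 lower, against 32.5% and 41.8% of all genes, and 7 did not pass. Their median was 0.082, beside -0.22 over all genes.

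The nearest tested genes on each side differed between MEFs and the KSR-iPSC lines in both directions. Srgap3 was higher in MEFs by 1.50 ± 0.21 (SE, adjusted p = 4.09e-06 in limma). Rad18, a ubiquitin ligase of DNA damage tolerance, was lower in MEFs by -0.74 ± 0.16 (adjusted p = 0.000455 in limma). Lmcd1, a LIM-domain protein, had 119 to 151 reads in MEFs and at most 9 in any KSR-iPSC library. On the side of Setd5, Mtmr14, a phosphoinositide phosphatase, was lower in MEFs by -1.13 ± 0.15 (adjusted p = 4.07e-06 in limma). Cpne9 of the copine family had 0 reads in each MEF library and 14 to 148 in the KSR-iPSC libraries. Lhfpl4, which takes part in inhibitory synapses, had 0 to 7 reads in MEFs and 3 to 76 in the lines, with overlapping libraries (-2.69 ± 0.75, adjusted p = 0.00365 in limma, and 0.0618 without MEF replicate 3, the highest of 24 alternatives, and a difference of -0.84 with 1 added before the logarithm).

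**Figure D4:**
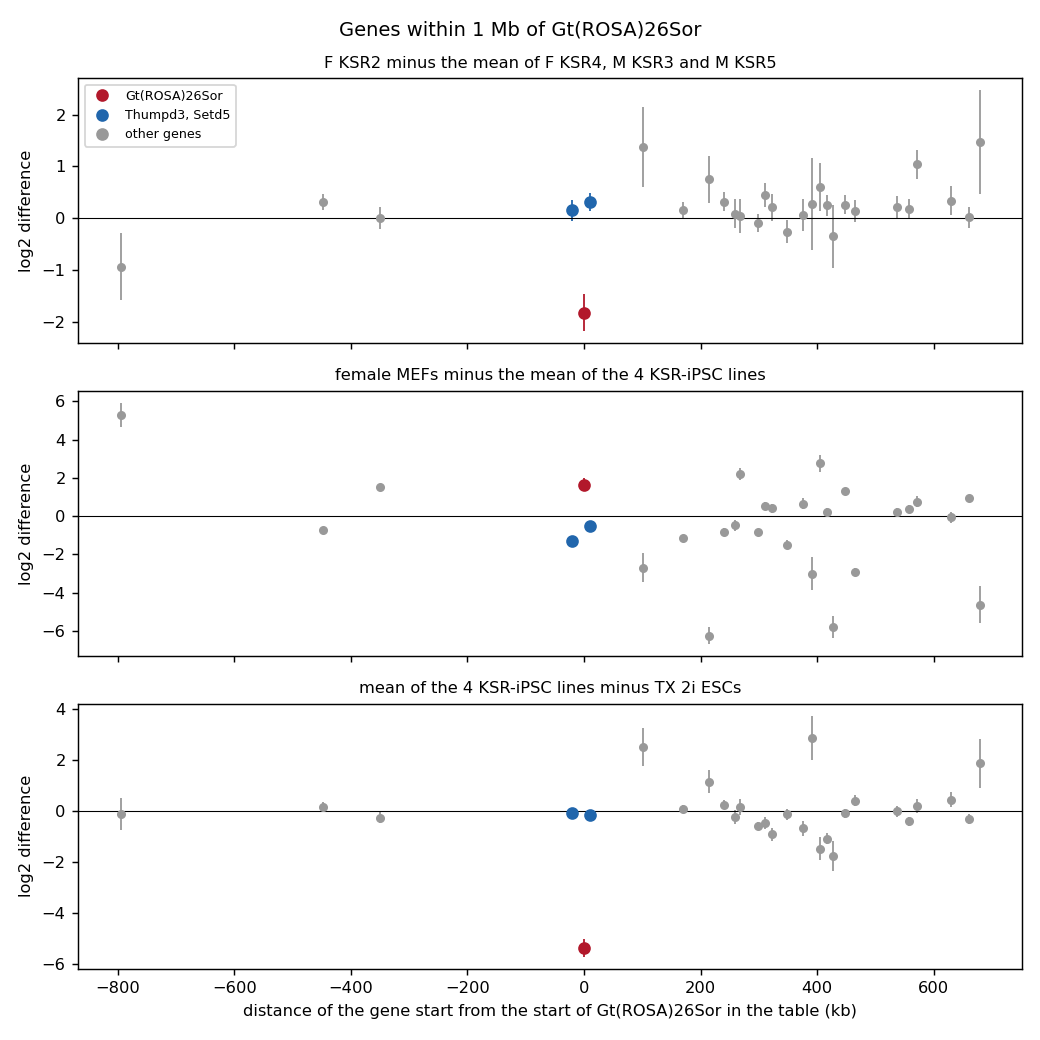
Fitted log2 differences ± SE (y axis) of the genes that start within 1 Mb of Gt(ROSA)26Sor against the distance of their start in kb (x axis), for 3 comparisons. Gt(ROSA)26Sor, in red, lies at -1.82 in the first panel, below the other genes, at 1.65 in the second, among them, and at -5.35 in the third, the comparison that chose it.

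Across the 18 libraries, 5 genes were named for the likeness of their pattern to that of Gt(ROSA)26Sor. The highest Pearson correlations of log2 levels were those of Klhl22 (r = 0.906), Cpne3 (r = 0.901), Dgcr6 (r = 0.891), 2510039O18Rik (r = 0.867) and Prap1 (r = 0.861). They are a description over libraries that fall into 6 groups, with the TX 2i ESCs the highest group in each. The high level in TX 2i ESCs also chose Gt(ROSA)26Sor, so no shared regulation is read from them. Klhl22 and Dgcr6 lie close together on chromosome 16. Prap1 was near the value of a gene without reads outside TX 2i ESCs, at -4.34 in MEFs and at most -3.65 in the KSR-iPSC lines. Klhl22, an adaptor of a ubiquitin ligase, had mean log2 levels of 6.96 in TX 2i ESCs, 6.04 in MEFs and 5.13 to 5.37 in the KSR-iPSC lines. For Thumpd3 r was -0.11 and for Setd5 it was -0.024.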

How the data were processed

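RNA-seq libraries were strand-specific and selected for polyA. Per the labels the reads were paired 150-bp reads and per the study's methods single 50-bp reads, a difference that was not settled here. The authors trimmed reads with Trim Galore 0.6.1, aligned them to GRCm38 with HISAT2 2.1.0, assigned reads with strain-specific bases to BL6 or CAST, and counted them over exons in SeqMonk. The authors deposited log2 RPM (reads scaled to the library total, not divided by length) for all reads and, scaled to their own totals, for unassigned, maternal and paternal reads, in 72 columns, with a gene without reads set at 0.9 read. The 82 methylation libraries of the series were not analysed here.

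Groups were taken from the sample titles. The row of Gt(ROSA)26Sor carries the Ensembl identifier of Thumpd3 and was taken by its name. Reads were recovered from the log2 values, and at least 99.9566% of values were whole within 0.05 read. Genes above log2 RPM 0 in at least 3 libraries were tested with limma 3.58.1 (R 4.3.3, variance trend, 18 libraries in 6 groups, Benjamini-Hochberg over all genes tested, threshold 0.05). The fit was tested on simulated data in which the changed genes had more reads than Gt(ROSA)26Sor in F KSR2, so such low levels were not covered. Shares used libraries with at least 5 allelic reads. Named genes were the 3 genes, the 3 nearest tested genes on each side and the 5 genes of highest correlation. Members and lists were chosen with earlier results of these data known. Exon lengths came from GENCODE (GRCm38) and sequences from RefSeq GRCm38. Alternatives were other filters, an added 1, limma-voom, centring, a replicate block, fewer groups, other share rules and leaving out each library.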

Additional observations from a re-analysis of the deposited data

Results flagged for a closer look

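The log2 level of Thumpd3 in F KSR4 replicate 2, at 5.16, lay apart from the other female KSR-iPSC libraries, of which the next was at 6.10. The gap was 0.758 of the range of the 6 female libraries, above Dixon's limit. Chance alone does this in about 1 of 20 groups, and 6 groups were looked at. Setd5 in the same library, at 7.64, did not stand apart.

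Gt(ROSA)26Sor differed between F KSR2 and the mean of F KSR4, M KSR3 and M KSR5, by -1.82 in log2 (adjusted p = 0.00822 in limma), all 3 libraries being lower, and the call was lost in 2 of 25 alternatives. Gt(ROSA)26Sor also differed between the female and the male lines, by -1.05 (adjusted p = 0.0409 in limma). This call was lost in 13 of 25 alternatives, with adjusted p up to 0.222 in limma or limma-voom, and F KSR4 lay level with M KSR5, at a difference of 0.078. The maternal values of Thumpd3 differed between F KSR2 and the other 3 lines, by 1.05 (adjusted p = 0.00524 in limma), all 3 libraries being higher. Maternal reads over all of chromosome 6 were also higher in F KSR2, as given above, and the part of this was not tested.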

How the results depend on the processing

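Over 79 results, 1417 of 1557 alternative values stayed as they were: tested values kept their direction and their side of the threshold, counts of genes stayed within 1.5 times, and values without a test moved by less than 1 SD between libraries. Deviations from the group means correlated above 0.1 in 22 of 45 pairs of same-numbered libraries of different groups (median r = 0.095) and in 25 of 90 pairs of other numbers (median r = -0.047). The numbers were not taken as a pairing, since not every same-numbered pair was above 0.1; with the replicate block Setd5 in the maternal values of F KSR2 against the other 3 lines passed at 1.53 (adjusted p = 0.0258 in limma), the other genes called within 1 Mb were 1 in place of 0 for F KSR2 and 2 in place of 0 for F KSR4 against M KSR3, and no other call of the 3 genes changed. The cause was not tested for any change below unless named.

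In limma-voom, Gt(ROSA)26Sor in F KSR2 was at -1.78 and in female against male lines at -1.01, neither passing. Female against male lines did not pass either with 1 added (-0.61), without a filter or with only the groups compared (-1.05 in both), or after centring (-0.96). Centring also left Setd5 in MEFs at -0.26 against the lines and -0.36 against TX 2i ESCs and the paternal values of Thumpd3 at 0.95, none passing, and turned Setd5 to 0.032 between the sexes and to -0.036 in the maternal values against MEFs, neither passing. The maternal values of Gt(ROSA)26Sor in F KSR2 turned to 0.037 with 1 added and 0.26 in limma-voom, neither passing. Those of Setd5 passed with 1 added (1.48), with the filter above 2 (1.53) and in limma-voom (1.52). With 1 added Gt(ROSA)26Sor in the KSR-iPSC lines against TX 2i ESCs was at -4.62, since the added 1 shrinks differences of low genes. Scaling each allele to its own total, which is larger for the maternal reads, gave maternal shares of Thumpd3 of 44.7% (MEFs), 45.4% (F KSR4), 44.5% (M KSR3) and 47.4% (M KSR5), a difference from MEFs of 1.03 points, and of Setd5 of 46.7% (MEFs), 42.6% (M KSR3) and 41.7% (M KSR5).

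Genes called were 255 in place of 537 for F KSR2 and 849 in place of 1523 for female against male lines with only the groups compared, and without a filter 190 in place of 342 for F KSR4 against M KSR5 and 19322 in place of 8465 for the paternal values. Other genes called within 1 Mb were 1 in place of 0 for F KSR2 (1 added, filter above 2, limma-voom), 1 or 2 in place of 0 for F KSR4 against M KSR3 (1 without a filter and in limma-voom; 2 with 1 added, the filter above 2 and centring), and 1 in place of 2 for M KSR3 against M KSR5 (no filter, filter above 2, limma-voom).

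Leaving out 1 library at a time, Gt(ROSA)26Sor ranged from -2.03 to -1.53 in F KSR2, from -1.19 to -0.84 between the sexes, from -0.20 to 0.52 for F KSR4 against M KSR5, and in the maternal values from -2.78 to -1.38 against MEFs and from -0.63 to 0.17 in F KSR2. Setd5 ranged from -0.58 to -0.42 in MEFs against the lines, from -0.70 to -0.56 in MEFs against TX 2i ESCs, from -0.15 to 0.071 between the sexes, and in the maternal values from 0.065 to 0.59 against MEFs (passing, at adjusted p = 0.0313 in limma, without F KSR4 replicate 3) and from 1.19 to 1.71 in F KSR2. Thumpd3 ranged from -0.54 to 0.029 for F KSR4 against M KSR3 and from 1.18 to 1.51 in the paternal values, and its share difference from 3.16 to 4.85 points. Genes called ranged from 234 to 873 (F KSR2), 2125 to 4317 (KSR-iPSC lines against TX 2i ESCs), 920 to 2414 (sexes), 904 to 3297 (F KSR4 against M KSR3), 64 to 1757 (F KSR4 against M KSR5) and 145 to 1182 (M KSR3 against M KSR5), and those within 1 Mb from 0 to 1, 1 to 9, 0 to 3, 0 to 3, 0 to 2 and 0 to 3 in the same order. The share of Gt(ROSA)26Sor in F KSR2 could not be taken with at least 20 allelic reads. Depth limits the allelic values of Gt(ROSA)26Sor most, with 1 to 40 allelic reads per library outside TX 2i ESCs.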
